A study of Mus musculus with 24 samples.

Results

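Sets of open-chromatin regions were drawn from macrophages of inbred mouse strains BTBR and C57BL6/J, 1 for each strain. The BTBR set held 110 regions found in at least 8 of 12 BTBR libraries and at most 1 C57BL6/J library. The C57BL6/J set held 148 regions found in at least 7 of 10 C57BL6/J libraries and at most 1 BTBR library. They were 0.376% and 0.506% of the 29243 autosomal regions, and the remaining 28985 regions belong to neither set. A region counted as found in a library when it held one of the 11000 highest-scoring peaks of that library's list. The members were thus chosen by these peak ranks in the 2 strains. Their levels in the 2 strains are given as a description, with no test.

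The cells were bone marrow-derived macrophages (BMDM), cultured for 7 days from bone marrow taken from male mice at postnatal day 28. BTBR mice were BTBR T+ Itpr3tf/J, an inbred line that carries the tufted allele of Itpr3, and C57BL6/J is the line from which the reference genome was built. From each of 4 animals per strain, 1 culture received medium alone (media), 1 lipopolysaccharide (LPS, 100 ng/ml) for 24 hours (LPSx1), and 1 LPS for 4 hours and, 20 hours after washing, for a further 24 hours (LPSx2). ATAC-seq, in which a transposase cuts accessible DNA, was run on 50000 cells per reaction. Of 24 libraries 22 were used, and the media and LPSx2 libraries of C57BL6/J animal 6, with 299 and 1879 peaks, were left out for their short lists.

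Accessible regions away from start sites often act as enhancers, and in macrophages many of them hold sites for the lineage factor PU.1, for C/EBP factors and for AP-1, which LPS signalling activates. Inbred strains differ at sequence variants and in gene families that expand and contract quickly, among them sensors of foreign DNA, interferon-inducible GTPases and ligands of natural killer receptors. Peaks within 1 kb of a start site were found for 4 of 10 macrophage markers (among them Spi1, Cd68 and Cd14) in over 50% of the libraries. The libraries stood apart by animal: 6 to 9 of the 10 were found in each library of BTBR animals 2 and 3 and 2 to 3 in those of BTBR animals 5 and 8, and 6 to 8 in those of C57BL6/J animals 1 and 4 and 1 to 5 in those of C57BL6/J animals 6 and 7. Additional PCR cycles differed along with the animals. They numbered 12 to 13 in BTBR animals 5 and 8 and C57BL6/J animal 7, and 10 in the used library of C57BL6/J animal 6. In BTBR animals 2 and 3 and C57BL6/J animals 1 and 4 they numbered 6 to 8. The part of the animals or of the PCR cycles in the membership of the sets was not tested. None of 5 B-cell markers or 4 stromal markers had such a peak in any library, 4 of 6 T- and NK-cell markers had none, and of 5 neutrophil markers S100a8 and Camp had one in 14 and 16 libraries.

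The number of peaks per list, the available measure of depth, ran from 13957 to 127242 in BTBR libraries and from 11349 to 43304 in C57BL6/J libraries after overlapping peaks were merged. Cutting every list at 11000 peaks removed the difference in length, not the difference in how deep into each list the cut fell. Read numbers per library were not given in the sources used here.

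The sequences of a few leading regions are printed as examples. Chosen by rank, these sequences do not represent the sets, whose shares of repeats and motifs are given further below. They are 201 bases around the median midpoint of the region's peaks, read 5′ to 3′ on the plus strand of mm10. Capitals mark matches, on either strand, to AP-1 (TGANTCA), PU.1 (GAGGAAGT), C/EBP (TTGCNNAA), RUNX (TGTGGTTT), the E-box of MiT/TFE factors (TCACGTGA), STAT (TTCCNGGAA) or SP/KLF (GGGGCGGGG), and overlapping matches of different motifs would share their capitals. Shown are 4 leading regions of each set, ordered by the number of libraries and then by rank value and without those on a chromosome whose sequence is not printed here, and then the promoters of Ifi204 and Nlrp1b, added after their values were seen. The first 4 are from the BTBR set.
Myo3a (chr2:22587734-22587934, plus strand, mm10): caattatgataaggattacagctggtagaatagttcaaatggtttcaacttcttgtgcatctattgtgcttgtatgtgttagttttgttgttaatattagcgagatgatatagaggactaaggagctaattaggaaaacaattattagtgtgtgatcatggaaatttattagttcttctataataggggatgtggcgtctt
Gm10717 (chr9:3029658-3029858, plus strand, mm10): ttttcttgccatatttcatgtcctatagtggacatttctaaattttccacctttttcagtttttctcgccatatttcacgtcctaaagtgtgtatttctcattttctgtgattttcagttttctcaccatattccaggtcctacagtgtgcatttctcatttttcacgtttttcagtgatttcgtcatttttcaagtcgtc
Sv2c (chr13:96011265-96011465, plus strand, mm10): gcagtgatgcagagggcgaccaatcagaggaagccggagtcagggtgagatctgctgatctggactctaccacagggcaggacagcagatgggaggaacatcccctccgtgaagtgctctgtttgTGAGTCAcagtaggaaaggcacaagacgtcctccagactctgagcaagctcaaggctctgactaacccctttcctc
St6galnac3 (chr3:153130150-153130350, plus strand, mm10): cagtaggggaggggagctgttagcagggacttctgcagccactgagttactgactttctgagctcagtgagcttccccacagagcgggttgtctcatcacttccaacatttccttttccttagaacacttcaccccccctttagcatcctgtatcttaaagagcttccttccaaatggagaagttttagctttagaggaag
The next 4 are from the C57BL6/J set, with the 2 promoters of that set after them.
Larp4b (chr13:9191298-9191498, plus strand, mm10): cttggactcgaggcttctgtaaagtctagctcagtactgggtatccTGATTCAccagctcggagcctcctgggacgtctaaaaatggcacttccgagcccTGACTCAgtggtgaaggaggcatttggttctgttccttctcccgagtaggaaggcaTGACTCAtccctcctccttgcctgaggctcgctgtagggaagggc
Klhdc4 (chr8:121792233-121792433, plus strand, mm10): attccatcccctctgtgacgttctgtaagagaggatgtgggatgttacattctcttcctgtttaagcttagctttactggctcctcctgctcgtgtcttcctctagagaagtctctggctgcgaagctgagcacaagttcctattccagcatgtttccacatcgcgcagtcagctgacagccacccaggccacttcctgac
Nlrp1b (chr11:71251420-71251620, plus strand, mm10): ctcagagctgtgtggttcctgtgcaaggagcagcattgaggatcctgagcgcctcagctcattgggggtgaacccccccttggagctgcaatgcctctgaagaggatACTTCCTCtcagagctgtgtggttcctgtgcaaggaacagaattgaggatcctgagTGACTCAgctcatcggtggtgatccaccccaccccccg
Pdlim5 (chr3:142249597-142249797, plus strand, mm10): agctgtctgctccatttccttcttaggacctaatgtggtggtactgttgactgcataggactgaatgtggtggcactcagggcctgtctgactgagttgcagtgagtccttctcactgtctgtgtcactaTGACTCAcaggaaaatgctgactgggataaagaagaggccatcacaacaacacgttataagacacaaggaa
Ifi204 (chr1:173766930-173767130, plus strand, mm10): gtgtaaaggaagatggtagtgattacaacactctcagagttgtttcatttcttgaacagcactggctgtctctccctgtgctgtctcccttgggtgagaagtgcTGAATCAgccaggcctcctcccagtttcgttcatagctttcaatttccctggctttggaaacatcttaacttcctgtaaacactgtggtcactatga
Nlrp1b (chr11:71230768-71230968, plus strand, mm10): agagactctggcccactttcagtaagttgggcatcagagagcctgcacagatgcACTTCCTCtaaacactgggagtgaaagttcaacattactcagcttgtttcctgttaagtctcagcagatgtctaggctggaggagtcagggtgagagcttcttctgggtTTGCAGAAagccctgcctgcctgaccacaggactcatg
The Larp4b window held 3 AP-1 matches, and the Nlrp1b window held 1 PU.1 and 1 AP-1 match. In the Myo3a window 80.9% of the 50-base stretches also occur in the mitochondrial genome. The Gm10717 window lay wholly in soft-masked, repeated sequence.

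**Figure D1:**
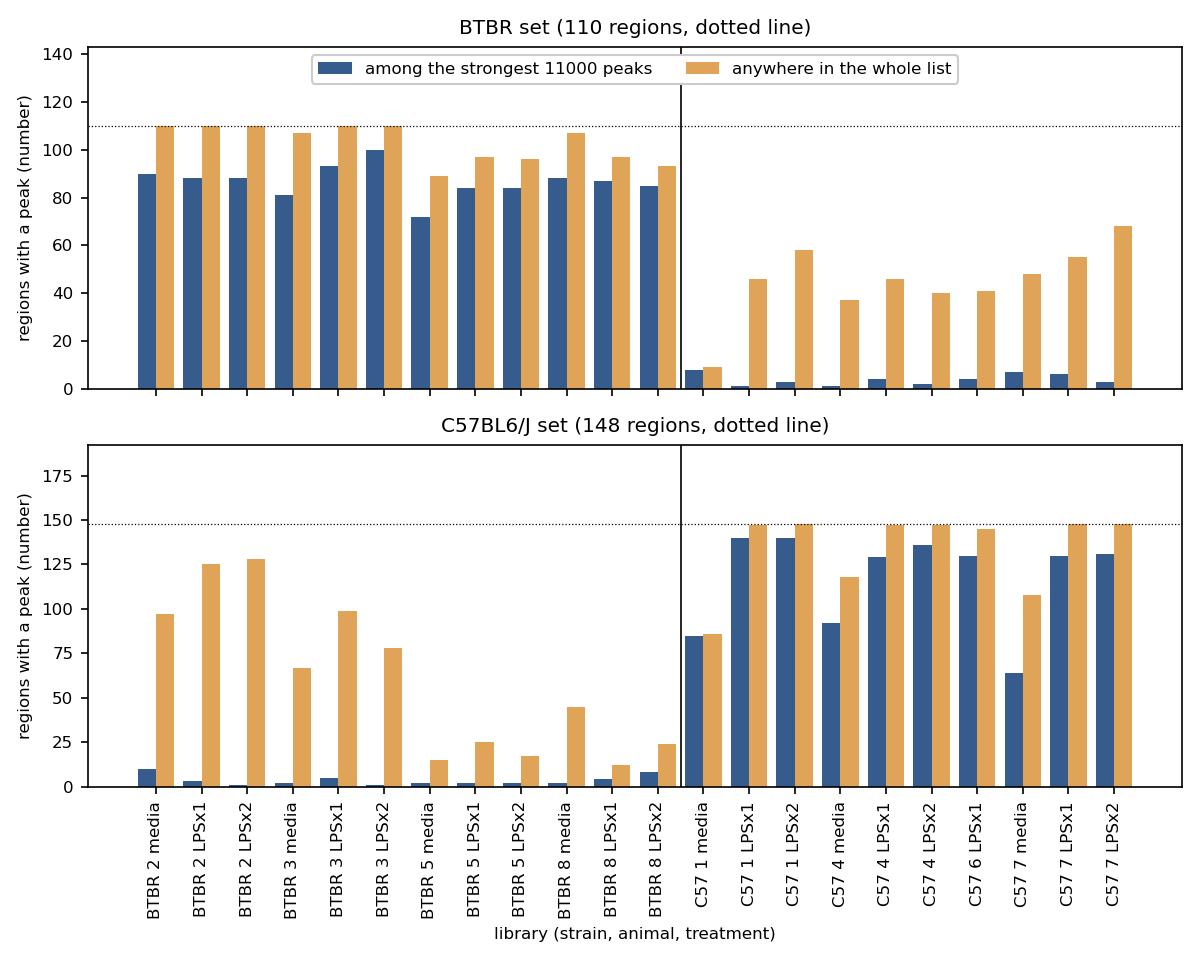
Number of regions of the BTBR set (top) and of the C57BL6/J set (bottom) with a peak in each of 22 libraries, among the strongest 11000 peaks (blue) or anywhere in the list (orange). BTBR libraries stand left of the line and C57BL6/J libraries (C57) right of it, and the orange bars of the other strain reach 68 of 110 and 128 of 148 regions.

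In the BTBR set, BTBR libraries held from 72 to 100 regions (median 87.5) and C57BL6/J libraries from 1 to 8 (median 3.5). In the C57BL6/J set, BTBR libraries held from 1 to 10 regions (median 2) and C57BL6/J libraries from 64 to 140 (median 130). These numbers follow from the rule. Regions found in every library of their own strain and in none of the other numbered 14 in the BTBR set and 23 in the C57BL6/J set. At the threshold stood 45 BTBR-set regions with 8 BTBR libraries, and 71 regions with 7 lay just outside. For the C57BL6/J set 82 regions had 7 C57BL6/J libraries, and 90 with 6 lay just outside. On the other limit, 39 BTBR-set regions had 1 C57BL6/J library and 58 regions with 2 lay outside, while 42 C57BL6/J-set regions had 1 BTBR library and 55 with 2 lay outside.

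Most regions were not restricted to 1 strain once the whole lists were read. Of the 110 BTBR-set regions, 80 had a peak at some rank in at least 1 C57BL6/J library, with a median of 4.5 of 10 libraries, and 30 (27.3%) had none. Of the 148 C57BL6/J-set regions, 130 had a peak at some rank in at least 1 BTBR library, with a median of 6 of 12 libraries, and 18 (12.2%) had none. Both sets are thus regions among the strongest peaks of 1 strain and not of the other, rather than regions open in 1 strain alone. The whole-list count moved with list length. BTBR animal 2, with lists of 63125 to 127242 peaks, held peaks at 97, 125 and 128 C57BL6/J-set regions, whereas BTBR animals 5 and 8, with lists of 13957 to 25892 peaks, held peaks at 12 to 45. Its part in the absence of the remaining regions was not tested.

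**Figure D2:**
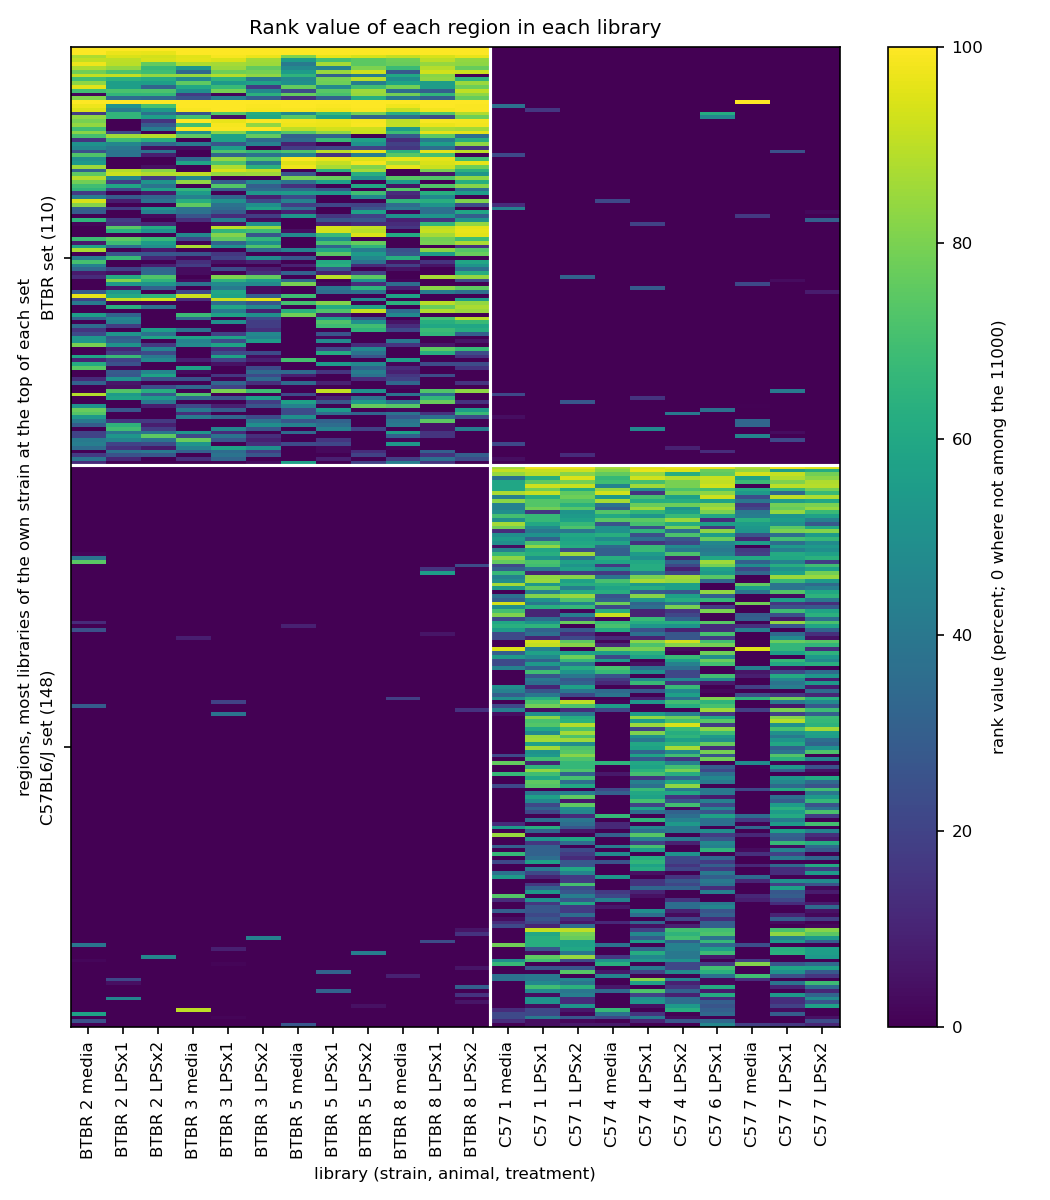
Rank value (percent of the 11000 listed peaks ranked at or below the region's peak, 0 where it has none) of 258 regions (rows) in 22 libraries (columns), BTBR libraries left and C57BL6/J libraries (C57) right. The BTBR set is above the white line, the C57BL6/J set below it, and both are filled in the libraries of their own strain and nearly empty in the others.

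The rank value, the percent of the 11000 listed peaks ranked at or below the region's peak, gives the level within a library. Its step is coarse because many peaks share a score. The region in an intron of Myo3a, which encodes an unconventional myosin of the inner ear, led the BTBR set (chr2:22587734-22587940). Its rank values were 99.7, 99.8 and 99.8 (lowest, median, highest) in the 12 BTBR libraries, and it had no peak at any rank in the 10 C57BL6/J libraries. The Gm10717 region (chr9:3029649-3029878) reached 96.8, 99.8 and 99.8 in BTBR libraries and 0 in C57BL6/J libraries, of which 4 had a peak lower in the list. Both regions therefore ranked at the very top of BTBR lists, in the repeated or mitochondria-like sequence shown above.

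An intronic region of Sv2c (chr13:96011207-96011494), which encodes a synaptic vesicle protein, ranked at 80.7, 94.3 and 98.5 in BTBR libraries and at 0 in C57BL6/J libraries, of which 5 had a peak lower in the list. The intergenic region whose nearest start site is that of the sialyltransferase gene St6galnac3 (chr3:153130128-153130446) ranked at 40.8, 84.9 and 97.3 in BTBR libraries. It had no peak at any rank in C57BL6/J libraries and no repeated 50-base stretch. Further leading BTBR regions lay at Txnl4a, Ndfip2, Platr25, 1700025G04Rik, Kcnn2 and Zfp462, with median rank values of 56.8 to 88.1 in BTBR libraries. Of these 6, Kcnn2 had no C57BL6/J peak at any rank.

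The C57BL6/J set was led by an intergenic region nearest Larp4b (chr13:9191269-9191538), which encodes an RNA-binding protein. It ranked at 0 in all 12 BTBR libraries and at 86.0, 95.9 and 97.2 in the 10 C57BL6/J libraries, and 7 BTBR libraries had a peak lower in the list. The intronic Jph3 region nearest Klhdc4 (chr8:121792159-121792483) ranked at 0 in BTBR libraries and at 55.3, 87.4 and 96.2 in C57BL6/J libraries. A Pdlim5 intron (chr3:142249566-142249843) had no BTBR peak at any rank and ranked at 37.4, 85.4 and 94.4 in C57BL6/J libraries. Tmem260, Spef2, Npr3, Cdh12 and Synpr were the nearest genes of the next 5 regions, and only that of Cdh12 lacked a BTBR peak at any rank.

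Both regions nearest Nlrp1b, which encodes an inflammasome sensor activated by anthrax lethal toxin, belonged to the C57BL6/J set and had no peak at any rank in BTBR libraries, the list of 127242 peaks included. The promoter region (chr11:71230747-71231018, 135 bp upstream of the start site) ranked at 26.0, 57.8 and 86.0 in C57BL6/J libraries. The second region (chr11:71251365-71251691), in an intron of the pseudogene Nlrp1c-ps, ranked at 62.5, 83.1 and 93.0. Repeated 50-base stretches made up 0% of the promoter window and 9.21% of the other.

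**Figure D3:**
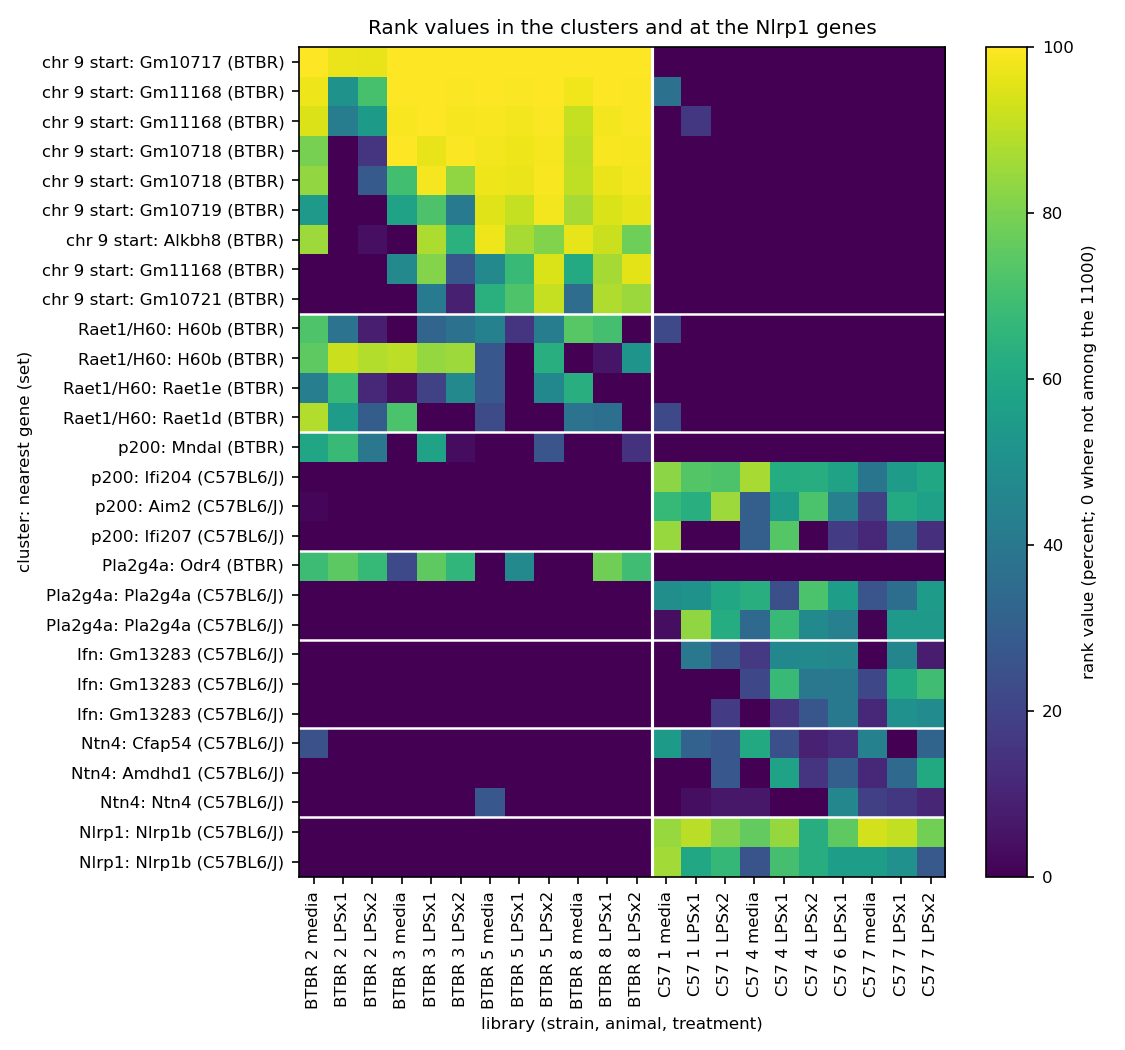
Rank value (percent) in 22 libraries, BTBR left and C57BL6/J (C57) right, of the 26 regions in 6 clusters and of 2 regions nearest Nlrp1b; each row gives the cluster, the nearest gene and the set. Most chromosome 9 rows are near 100 in BTBR animals 5 and 8, and the p200 and Pla2g4a clusters hold rows of both sets.

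Members of either set at most 500 kb apart, in chains of at least 3, formed 6 clusters with 26 regions, 15 of the BTBR set and 11 of the C57BL6/J set. They made up 10.1% of members, and members were 0.882% of all regions. Within the clusters, members were from 12.5% to 100% of the regions in the span. Each span begins and ends at a member, which raises this share by construction. The share of members in clusters to be expected without clustering was not computed, and 0.882% is not that share. Neighbouring members within 500 kb formed 46 pairs, of which 33 were of the same set. Pairs within the chromosome 9 cluster described next are among the 33, and the same-set share to be expected was not computed.

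The largest cluster lay near the start of chromosome 9 (chr9:3002408-3258982) and held 9 BTBR-set regions among 19 regions in its 257 kb. They lay at the predicted genes Gm11168, Gm10717, Gm10718, Gm10719 and Gm10721 and, at the far end, upstream of Alkbh8, a tRNA-modifying enzyme gene. In 7 of the 9, over 50% of the 50-base stretches occurred again in the genome. The Alkbh8 region held none and ranked at 0, 83.3 and 97.6 in BTBR libraries. The Gm11168 region at chr9:3002891-3003102 ranked at 51.3, 99.5 and 99.8 in BTBR libraries and at 0, 0 and 37.4 in C57BL6/J libraries. BTBR animal 2, whose LPS lists were the longest, had no peak among its strongest 11000 at 6 of the 9 regions after LPSx1 and at 3 after LPSx2, whereas animals 5 and 8 had one at all 9 in every library. The media list of C57BL6/J animal 6, left out for its 299 peaks, still held 2 of these regions, and its LPSx2 list of 1877 merged peaks held 3.

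On chromosome 10 (chr10:22165679-22354553) 4 BTBR-set regions among 7 regions in the span lay at Raet1e, H60b and Raet1d, which encode ligands of the activating receptor NKG2D on natural killer and T cells. The H60b intronic region (chr10:22282878-22283138) ranked at 0, 68.9 and 91.8 in BTBR libraries and at 0 in C57BL6/J libraries, of which 2 had a peak lower in the list. The Raet1e promoter region (chr10:22165679-22165931) ranked at 0, 23.5 and 67.7 in BTBR libraries and had no C57BL6/J peak at any rank, with 38.8% repeated stretches. By contrast, the other two regions had a peak at some rank in all 10 C57BL6/J libraries, 1 of them among the strongest 11000.

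The p200 cluster on chromosome 1 (chr1:173418914-173872579) held regions of both sets among the interferon-inducible p200 genes, whose products sense DNA or act in the nucleus. The C57BL6/J set held the promoter regions of Ifi204, Aim2 (the sensor of cytosolic DNA that builds an inflammasome) and Ifi207. Ifi204 (chr1:173766863-173767161) ranked at 0 in BTBR libraries and at 38.7, 62.1 and 86.8 in C57BL6/J libraries. Aim2 (chr1:173418914-173419261) ranked at 0, 0 and 1.71 in BTBR libraries and at 19.1, 59.2 and 85.5 in C57BL6/J libraries. A peak at some rank stood in 3 BTBR libraries for Ifi204 and in 6 for Aim2. The BTBR set held the Mndal region (chr1:173872355-173872579), which ranked at 0, 9.12 and 67.7 in BTBR libraries, had no C57BL6/J peak at any rank, and had 50% repeated stretches. All 4 lay within 1 kb of a start site.

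A cluster on chromosome 4 (chr4:88757553-88763702) held 3 C57BL6/J-set regions, the only regions in its 6.15 kb, around Gm13283 in the type I interferon gene cluster beside Ifna and Ifnz genes. None had a peak at any rank in a BTBR library, and their median rank values in C57BL6/J libraries were 16.3, 30.9 and 33.5. On chromosome 1 (chr1:149840916-150387919), 2 intronic regions of Pla2g4a, the cytosolic phospholipase A2 that frees arachidonic acid, belonged to the C57BL6/J set and 1 intronic region of Odr4 to the BTBR set. The Pla2g4a regions had median rank values of 0 in BTBR libraries and 52.8 and 50.6 in C57BL6/J libraries, and 9 and 7 BTBR libraries held a lower-ranked peak. Odr4 ranked at 0, 66.3 and 78.2 in BTBR libraries and had no C57BL6/J peak at any rank. The last cluster, at Cfap54, Amdhd1 and Ntn4 on chromosome 10 (chr10:93070613-93688621), had C57BL6/J-set regions with a peak at some rank in 9, 8 and 8 BTBR libraries.

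Of 19 gene lists chosen with earlier results of these data known, 5 had a member within 100 kb of a start site, of which 4 are given. The p200 list held 4 members among 21 regions (19%), the interferon-inducible GTPases 3 of 21 (14.3%), the NLR and inflammasome genes 3 of 46 (6.52%), and the phosphoinositide genes 2 of 171 (1.17%), with 0.827% of regions at all protein-coding genes. Aim2 counts in 2 lists. The other 14 lists, with 516 regions among them, held none, and they include the LPS sensing pathway (56 regions), the macrophage identity genes (133 regions) and the cytokines and chemokines (90 regions). Lists were matched by the nearest start site. By position inside a gene, 1 C57BL6/J-set region lay in an intron of Irak4, of the LPS sensing list, and 1 in the overlapping annotation of Cx3cr1, Gorasp1 and Wdr48 (chr9:119925268-119925634), where Cx3cr1 encodes the fractalkine receptor of macrophages. That region at Cx3cr1 ranked at 0 in BTBR libraries and at 12.6 to 85.0 in C57BL6/J libraries, and 8 BTBR libraries had a peak lower in the list.

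Among GTPase genes, which act against pathogens inside cells, Irgm2 and Gbp2 were nearest to BTBR-set regions and Gvin1 to a C57BL6/J-set region. The Irgm2 promoter region ranked at 0, 30.7 and 47.5 in BTBR libraries and at 0 in C57BL6/J libraries, and 52.6% of the 50-base stretches in its window were repeated. The Gbp2 promoter region ranked at 0, 18.7 and 69.3 in BTBR libraries and at 0, 0 and 46.7 in C57BL6/J libraries. Each had a peak at some rank in 8 C57BL6/J libraries. The 2 intronic regions of Inpp4b, a phosphoinositide phosphatase gene, were each found in 0 BTBR libraries and in 8 of 10 C57BL6/J libraries.

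**Figure D4:**
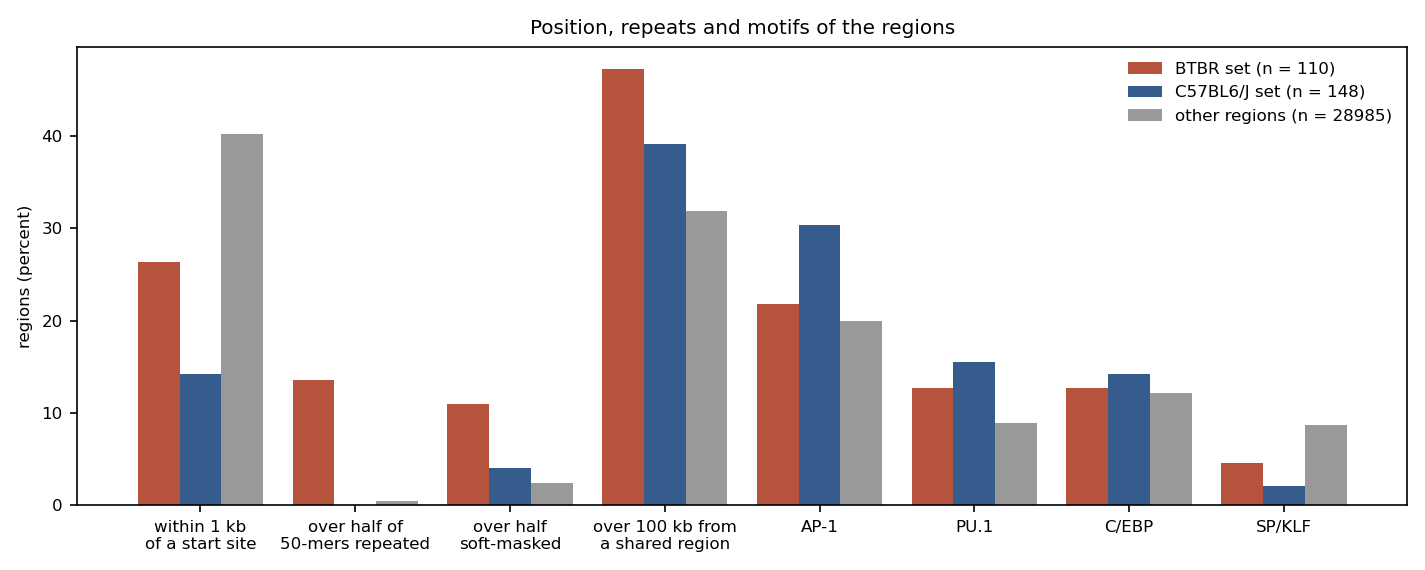
Percent of regions in the BTBR set, the C57BL6/J set and all other regions that lie near a start site, in repeated sequence or far from a region found in most libraries of both strains, and percent with a motif in the 201 bp window. Repeated sequence is at 13.6% in the BTBR set and at 0% in the C57BL6/J set.

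The sets differed from the other regions in where they lay. Within 1 kb of a start site were 26.4% of the BTBR set, 14.2% of the C57BL6/J set and 40.2% of the other regions. Introns of coding genes held 37.3%, 43.9% and 38.0%, and intergenic sequence 38.2%, 40.5% and 39.9%. Over 100 kb from a region found in most libraries of both strains lay 47.3% of the BTBR set, 39.2% of the C57BL6/J set and 31.9% of the other regions. AP-1 matches stood in 21.8% of BTBR-set windows, 30.4% of C57BL6/J-set windows and 19.9% of other windows of the same length. Away from start sites the AP-1 shares were 27.2%, 32.3% and 29.4%. PU.1 matches stood in 12.7%, 15.5% and 8.85% of all windows, and in 13.6%, 15.7% and 12.4% of those away from start sites. C/EBP matches stood in 12.7%, 14.2% and 12.2% of all windows, and in 17.3%, 15% and 16.5% of those away from start sites. No test was made of these shares.

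Repeated sequence set the BTBR set apart in count. In 15 of its regions (13.6%), over 50% of the stretches of 50 bases, which is the read length, occurred again in the genome, against none of the C57BL6/J set and 0.404% of the other regions. Of the 15, 7 lay in the chromosome 9 cluster and the others included Myo3a, Platr25, Slc25a37, Olfr161, Irgm2, Hist1h2br, Tmem68 and Phc2. Among the 30 BTBR-set regions with no C57BL6/J peak at any rank, 8 were of this kind. Their part in the difference between the strains was not tested.

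**Figure D5:**
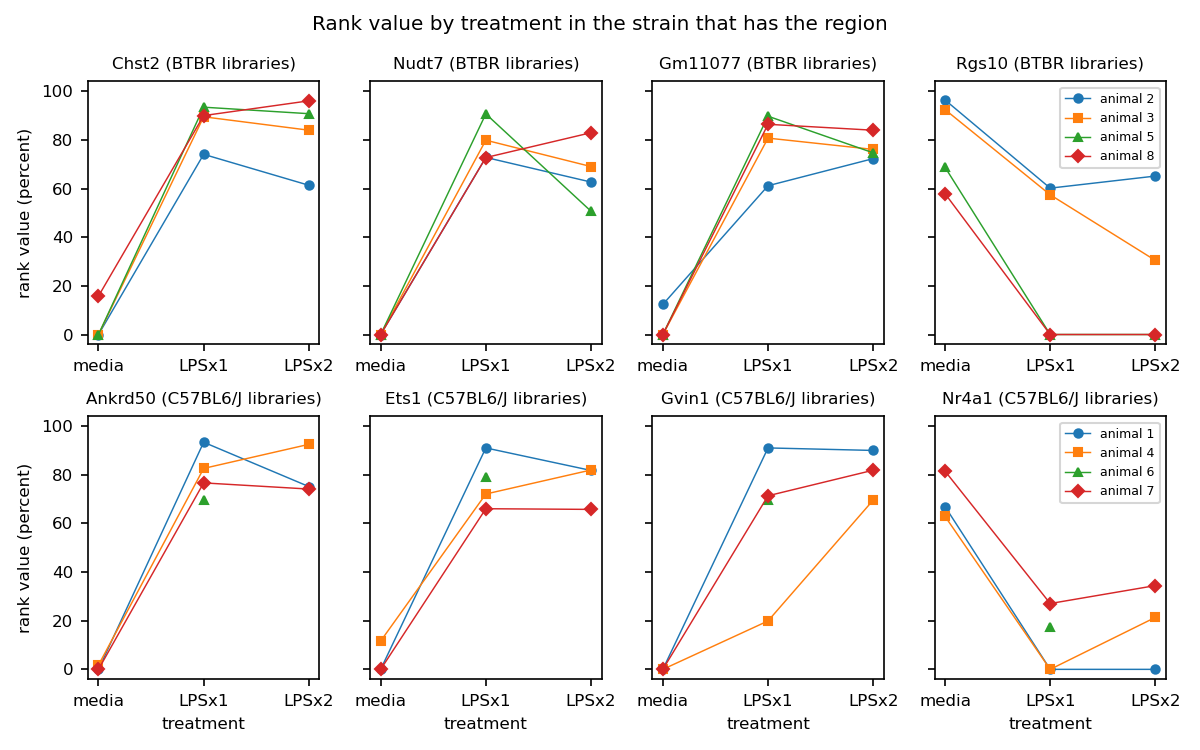
Rank value (percent) after media, LPSx1 and LPSx2 in libraries of the strain that has the region, 4 BTBR-set regions (top) and 4 C57BL6/J-set regions (bottom), 1 line per animal. Animal 6 has only an LPSx1 point, and Chst2, Nudt7, Gm11077, Ankrd50, Ets1 and Gvin1 lie higher after LPS in every animal with both, while Rgs10 and Nr4a1 lie lower.

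LPS was compared with media within each strain, a contrast that the strain rule did not use directly. The rule still touches it: 7 and 8 are the numbers of C57BL6/J and BTBR LPS libraries, so a region found only after LPS can be a member, whereas one found only in media, with 3 C57BL6/J or 4 BTBR libraries, cannot. The balance of rises and falls among members is therefore partly fixed. A region with few or no media peaks had to be found in nearly every LPS library to enter, so the rises below are a description and are given with no p, and 40 C57BL6/J-set regions and 5 BTBR-set regions were found in every LPS library and no media library of their strain. Rank values were fitted with limma over 15675 regions in 6 groups with the lane as a covariate and Benjamini-Hochberg adjustment. In that fit the libraries of the other strain, nearly all at 0 for members, lower the spread, so a fit on libraries of 1 strain alone was added.

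Among 110 BTBR-set regions, 12 rose (10.9%) and 2 fell after LPSx1, and 9 rose (8.18%) and 3 fell after LPSx2, in the limma fit of 6 groups. Over all regions, 1.86% rose and 1.61% fell after LPSx1 and 2.06% rose and 1.66% fell after LPSx2. With the spread from BTBR alone, 8 rose and 0 fell after LPSx1, beside 1.07% and 0.655% of all regions. In the same fit 8 rose and 1 fell after LPSx2, against 1.23% and 0.641%. At an unadjusted p under 0.05 (limma), 20 members were higher and 10 lower after LPSx1 with the spread from BTBR alone. In the fit of 6 groups, 22 were higher and 13 lower at that threshold. The shares of all regions at the unadjusted threshold are not given, so these counts cannot be set against them. With the spread from BTBR alone and no lane covariate, 5 and 3 passed the adjusted threshold, among 36 and 28 of 15124 regions. Passing both fits were 8 members after LPSx1 and 9 after LPSx2, among 259 and 280 of all 15124 regions. The 2 member lists had 7 in common, which are 87.5% and 77.8% of them, and both comparisons share the media libraries. The rule, which admits regions found only after LPS, favours that overlap, and the overlap over all regions is not given.

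The Chst2 region (chr9:95350635-95350865), intergenic and 55979 bp from the start site of a carbohydrate sulfotransferase gene, ranked in the order of animals 2, 3, 5 and 8 at 0, 0, 0 and 15.8 in media, at 74.1, 89.5, 93.4 and 89.99 after LPSx1 and at 61.4, 84.0, 90.8 and 96.1 after LPSx2. The difference from media was 82.8 ± 11.6 (SE, limma fit of 6 groups, n = 4 each) after LPSx1 and 79.1 after LPSx2. That SE uses the spread shared by all 22 libraries, which those of the other strain lower, so it is not the spread of the BTBR cultures. The SE from BTBR alone is not given. The intergenic region nearest Nudt7 (chr8:114121825-114122097), a gene of a nudix hydrolase that acts on coenzyme A, ranked at 0 in all 4 animals in media, at 72.8, 79.9, 90.7 and 72.7 after LPSx1 and at 62.7, 69.0, 50.7 and 82.9 after LPSx2. It was found in 0 media libraries and in all 8 LPS libraries, the number the rule requires, and its difference after LPSx1 was 79.0. The intergenic region nearest Gm11077 (chr6:140811016-140811270) ranked at 12.4, 0, 0 and 0 in media, at 61.2, 80.7, 89.7 and 86.4 after LPSx1 and at 72.3, 76.1, 74.7 and 84.0 after LPSx2. Its difference after LPSx1 was 76.4, and that of the region nearest Tex35 was 73.5. The Rgs10 intron region, in the gene of a regulator of G-protein signalling, ranked at 96.4, 92.5, 68.8 and 57.9 in media, at 60.2, 57.4, 0 and 0 after LPSx1 and at 65.1, 30.5, 0 and 0 after LPSx2. It fell by 55.0 after LPSx2 (limma, adjusted p = 0.012, and 0.030 with the spread from BTBR alone), and its ranges overlapped. That call was lost without BTBR animal 3 (limma, adjusted p = 0.063), without BTBR animal 5 (0.077), with no lane covariate (0.084), by presence or absence (0.33) and with the spread from BTBR alone and no lane covariate (0.36). It was chosen after its values were seen, as the 1 BTBR-set region that fell in both fits.

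Among 148 C57BL6/J-set regions, 54 rose (36.5%) and 6 fell after LPSx1, and 51 rose (34.5%) and 5 fell after LPSx2, in the limma fit of 6 groups. Over all regions, 8.2% rose and 7.38% fell after LPSx1 and 9.37% rose and 7.85% fell after LPSx2. With the spread from C57BL6/J alone, 25 rose and 3 fell after LPSx1, against 5.32% and 3.94% of all regions, and 28 rose and 3 fell after LPSx2, against 7.43% and 6.47%. Both fits passed 28 members after LPSx1 and 30 after LPSx2, among 1310 and 1923 of all 14784 regions. These member lists had 21 in common, or 75.0% and 70.0% of the lists, and both comparisons share the media libraries. As in BTBR, the rule favours that overlap, since it admits regions found only after LPS. The overlap over all regions is not given here either. Media was represented by 3 C57BL6/J animals and LPSx2 by 3. With the spread from C57BL6/J alone and no lane covariate, 21 members passed after each treatment. Over all 14784 regions, 598 rose and 559 fell after LPSx1 in that setting, and 627 rose and 561 fell after LPSx2. Without C57BL6/J animal 1, 32 members passed for LPSx2 in the fit of 6 groups, among 994 of 15675 regions.

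The Ankrd50 intron region (chr3:38459601-38459858) ranked at 0, 1.76 and 0 in media (animals 1, 4 and 7), at 93.3, 82.6, 69.5 and 76.6 after LPSx1 (animals 1, 4, 6 and 7) and at 75.1, 92.5 and 74.1 after LPSx2. The difference from media was 80.9 ± 12.3 after LPSx1 (SE, limma fit of 6 groups) and 79.99 after LPSx2. That SE too uses the spread shared by the libraries of both strains. With C57BL6/J alone the difference after LPSx1 was 83.6, and its SE is not given. The Ets1 intron region (chr9:32709771-32710118), in the gene of a transcription factor of the ETS family, ranked at 0, 11.6 and 0 in media, at 91.0, 72.1, 79.0 and 66.0 after LPSx1 and at 81.8, 81.9 and 65.8 after LPSx2. Its difference after LPSx1 was 73.0. The Gvin1 region ranked at 0, 0 and 0 in media, at 91.0, 19.9, 69.5 and 71.3 after LPSx1 and at 89.98, 69.6 and 81.9 after LPSx2. It was found in 0 media libraries and in all 7 LPS libraries, the number the rule requires, and its difference after LPSx2 was 80.5.

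After LPSx2 a region in an intron of Irak4, a kinase gene of Toll-like receptor signalling, with the actin-binding protein gene Twf1 as its nearest start site, stood 82.5 above media, and that nearest Etv1, another ETS factor gene, 75.1 above. Pde6h, 1110004F10Rik and Rspo2 were nearest to regions that stood 65.1 to 78.1 above media after LPSx1. Like the Gvin1 region, all 5 were found in 7 C57BL6/J libraries. The region nearest Myl12b, a myosin light chain gene, fell by 83.9 after LPSx2 in the fit of 6 groups (limma, adjusted p = 0.00036, and 0.47 by presence or absence). Its adjusted p with the spread from C57BL6/J alone is not given. The Myl12b region ranked at 94.9, 78.7 and 94.7 in media, at 43.8, 79.5, 0 and 66.0 after LPSx1 and at 0, 3.03 and 13.5 after LPSx2. The Nr4a1 intron region, in the gene of an orphan nuclear receptor, ranked at 66.9, 62.9 and 81.5 in media, at 0, 0, 17.4 and 27.1 after LPSx1 and at 0, 21.4 and 34.4 after LPSx2. It fell by 59.8 after LPSx1 in the fit of 6 groups (limma, adjusted p = 0.00055, and 0.34 by presence or absence). With the spread from C57BL6/J alone its adjusted p was 0.017 (limma). The region nearest Sh3bp5l also fell (limma, adjusted p = 0.0059 in the fit of 6 groups, and 0.19 by presence or absence). With the spread from C57BL6/J alone its adjusted p was 0.047, and 0.11 without the lane covariate as well (limma). Both regions were chosen after their values were seen, among the 3 C57BL6/J-set regions that fell in both fits after LPSx1.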

How the data were processed

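ATAC-seq peak lists of 24 libraries were used. Reads were aligned to mm10, restricted to nucleosome-free fragments (under 147 bp) and peaks called with HOMER in each replicate, per the labels' design text; bedtools, Picard 2.18.4, SAMtools 1.8 and Trimmomatic 0.38 are listed in the submitters' processing notes. The aligner is not given in the sources used here. Since mm10 is a C57BL/6J sequence, BTBR reads were placed on another strain's genome. The authors deposited, for each peak of 201 bp, a score in steps of 0.5 whose scale is not stated, and it was used only for ranks within a list.

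Overlapping peaks of a list were collapsed to the best score, since in 7 lists most peaks overlapped another. Lists under 5000 peaks were left out, the top 11000 of each list were kept with ties by position, and peaks were merged at 1 bp overlap. Genes came from GENCODE release M21 and sequences from GRCm38.p6, the assembly of mm10. Each region was assigned to the nearest start site of a protein-coding gene, and repeats were 50-base stretches that occur again on chromosomes 1 to 19, X and Y. Rank values of regions found in at least 5 libraries were fitted with limma 3.58.1 in R 4.3.3 (trend and robust), with a threshold of 0.05 on the adjusted p. The fit was tested on simulated data for LPSx1 against media in BTBR.

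Libraries with the same number were taken as 1 animal. Deviations from group means correlated with a median of 0.346 (-0.00523 to 0.654) over 21 pairs of libraries with the same number. Over 60 pairs with different numbers the median was -0.239 (-0.588 to 0.559). Deviations within a group cancel out, which lowers the second median in advance. All pairs of BTBR animals 2 and 3 (0.1595 to 0.4981) and of 5 and 8 (0.2233 to 0.4714) were positive. The medians therefore cannot show that a number marks 1 animal. Nothing states whether p-values cover more than the spread between these cultures. Members, gene lists and markers were chosen with earlier results of these data known. Named regions were the first 10 of each set, the first of each cluster, those of gene lists and up to 5 per treatment contrast; the other cluster regions, and those at Cx3cr1, Odr4 and the repeated sequences were named after their values were seen. The sequencing lane, which held 1 animal of each strain, was a covariate. Some regions and markers are not reported here. Peak counts stand in for depth, and give no interval for a level.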

Additional observations from a re-analysis of the deposited data

Results flagged for a closer look

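The C57BL6/J-set regions found among the strongest 11000 peaks numbered 10 in the media library of BTBR animal 2, against 2 in each other BTBR media library. In the LPSx2 library of BTBR animal 8 there were 8, against 1 or 2 in the others, and in the LPSx1 library of C57BL6/J animal 1 there were 140, against 129 or 130 in the others. These 3 samples were picked out by their gap to the rest of their group, in 8 comparisons, each of 1 set in 1 group of libraries. No rate expected by chance is given, since the rule limits these counts and several are tied. The counts are of peaks that the rule itself used, so they are a description only.

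The LPSx2 list of C57BL6/J animal 6, left out for its 1877 peaks after merging, held 18 of the C57BL6/J-set regions (12.2%), 3 of the BTBR-set regions (2.73%) and 5.80% of the other regions. The 18 include those nearest Larp4b, Synpr, Spef2 and Etv1, and all 3 BTBR-set regions lie in the chromosome 9 cluster.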

How the results depend on the processing

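The BTBR set numbered 45 regions with the top 5500 peaks of each list, 354 with whole lists, 242 without the lists in which most peaks overlapped another, 71 with no C57BL6/J library allowed, 168 with 2 allowed, and 30 with no C57BL6/J peak at any rank, a setting chosen after seeing the data. The C57BL6/J set numbered 67 with the top 5500, 76 with overlapping peaks uncollapsed and 18 with no BTBR peak at any rank. Of the original regions, 30 of 110 and 29 of 148 remained with the top 5500, and 39 and 20 with whole lists. Leaving out 1 animal, with the required share of libraries rounded up, gave 114 to 198 regions in the BTBR set (198 without C57BL6/J animal 7, 175 without BTBR animal 5) and 74 to 207 in the C57BL6/J set (74 without C57BL6/J animal 6). The 6 clusters became 1 with the top 5500, 24 with whole lists, 12 with gaps of 1000 kb, 1 with at least 5 members, and 4 to 12 without 1 animal. Without repeated regions 5 remained.

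Regions changed over all regions tested numbered, for LPSx1 and LPSx2 in BTBR and then in C57BL6/J, 544, 583, 2442 and 2699. They were 213, 224, 1112 and 1218 with no lane covariate, 152, 134, 972 and 924 with the top 5500, and 360, 305, 1413 and 1245 with overlapping peaks uncollapsed. With presence or absence in place of rank they were 387 for LPSx2 in BTBR and 1190 and 1602 in C57BL6/J. The spread of 1 strain alone, chosen after seeing the data, gave 261, 283 and 1369 for the first 3, and without the lane as well 36, 28, 1157 and 1188, with 34 of 36 and 28 of 28 higher in BTBR, against 291 of 544 and 323 of 583. Higher calls made up 68.6%, 67.2% and 65.1% of calls by presence (LPSx2 in C57BL6/J apart), against 53.5%, 55.4% and 52.6%, and 68.3% and 69.0% for LPSx1 with overlapping peaks uncollapsed. Without 1 animal the ranges were 189 to 494, 227 to 532, 1196 to 2444 and 994 to 2733, lowest without BTBR animal 3 or C57BL6/J animal 1, and without BTBR animal 2 239 of the LPSx1 calls in BTBR were higher and 126 lower. The replicate block, the animal in place of the lane, gave 475, 519, 1820 and 2610. Among members, 14, 12, 60 and 56 changed, against 12, 12, 53 and 57 with the block, 4, 3, 7 and 6 with the top 5500 and, since few members reach it, 4, 3, 8 and 4 among regions found in at least 10 libraries. The named regions kept their direction and their call in 377 of 400 refits and lost the call in 23, of which 5 are Rgs10 after LPSx2 (limma, adjusted p from 0.063 to 0.36), and no direction reversed in these refits, although by presence the difference at 1 region after LPSx2 was 0. The cause of these changes was not tested. Depth per library is known only through list length, so an absent peak is not detectable at this depth rather than shown to be closed.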
